A study of Mus musculus with 4 samples.

Results

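The voltage-gated calcium channel genes described here were 10 of the 31053 genes in the count matrix, found by symbol: Cacna1a, Cacna1b, Cacna1c, Cacna1d, Cacna1e, Cacna1g, Cacna1h and Cacna1i, which encode pore-forming α1 subunits, and Cacna2d1 and Cacna2d3, which encode auxiliary α2δ subunits. All 10 symbols were found, each in 1 row. Nuclei came from the superior colliculus of C57BL/6J mice, the midbrain structure that receives visual input from the retina, taken at embryonic day 19 (E19) or on postnatal day 4, 8 or 21 (P4, P8 and P21). Tissue of several animals was pooled at each stage and gave 1 single-nucleus library (10x Genomics 3′ v3), so stage and library cannot be told apart, no group has a replicate and no test across samples was possible. The labels name no genotype or treatment. The authors' deposited annotation sorted the 9724 nuclei into 9 classes and into finer subtypes, EN1 to EN13 for excitatory neurons and IN1 to IN12 for inhibitory neurons.

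Voltage-gated calcium channels open when the membrane is depolarised and let calcium into the cell. The α1 subunit forms the pore and sets the channel type: P/Q, N and R type channels admit calcium at nerve terminals and trigger transmitter release, L type channels couple activity to gene expression and shape firing, and T type channels open near rest and support burst firing. The α2δ subunits are largely extracellular proteins that raise the number of channels at the surface and act at synapses. Cacna2d1 encodes the binding protein of gabapentin.

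The libraries held 2585, 2386, 2504 and 2249 nuclei from E19 to P21, with a median of 6828 to 11745 unique molecular identifiers (UMIs) per nucleus that was highest at P21. Excitatory neurons numbered 1338, 1206, 867 and 682 and inhibitory neurons 893, 738, 1088 and 740 from E19 to P21. The class names were checked against marker genes. Excitatory neurons held 179 to 286 CPM (counts per 1000000 UMIs) of the glutamate transporter genes Slc17a6 and Slc17a7 against 8.49 to 46.3 CPM in inhibitory neurons. Inhibitory neurons held 680 to 950 CPM of Gad1, Gad2 and Slc32a1 against 34.6 to 58.6 CPM in excitatory neurons. Subtype EN7, 33 nuclei at E19 and 191 at P4, stood apart with 8949 and 5841 CPM of a thalamic marker list (Tcf7l2, Lef1, Gbx2 and Rnf220), where the other excitatory subtypes held from 842 (EN11) to 2276 (EN9) CPM at E19. That list is not particular to neurons here. Astrocytes held 1230 CPM of it at E19 and oligodendrocyte-lineage nuclei 4735 CPM at P21, so EN7 is named by its label only. Nuclei annotated as epithelial held at most 7.28 CPM of the epithelial markers Foxj1, Ttr, Folr1 and Epcam at E19, P8 and P21. At P4 they held 111 CPM, below astrocytes (688 CPM) and oligodendrocyte-lineage nuclei (453 CPM). Excitatory and inhibitory neurons held 76.5 and 98.2 CPM of the list in that library. The epithelial class is therefore named here by its label only. In all, 9 barcodes occurred in more than 1 library.

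Levels are given as CPM, the UMIs of a gene summed over the nuclei of a class or subtype in a library and divided by all UMIs of those nuclei. The intervals beside them are exact 95% Poisson intervals and cover counting error only, not the spread between animals or libraries. In the neuron classes a member's CPM rested on 205 to 17181 UMIs, and the interval reached at most 14.7% above the value. A gene was called higher or lower where log2 of the ratio, with 5 CPM added to both sides, was at least 1 in size and the higher side held at least 20 CPM.

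**Figure D1:**
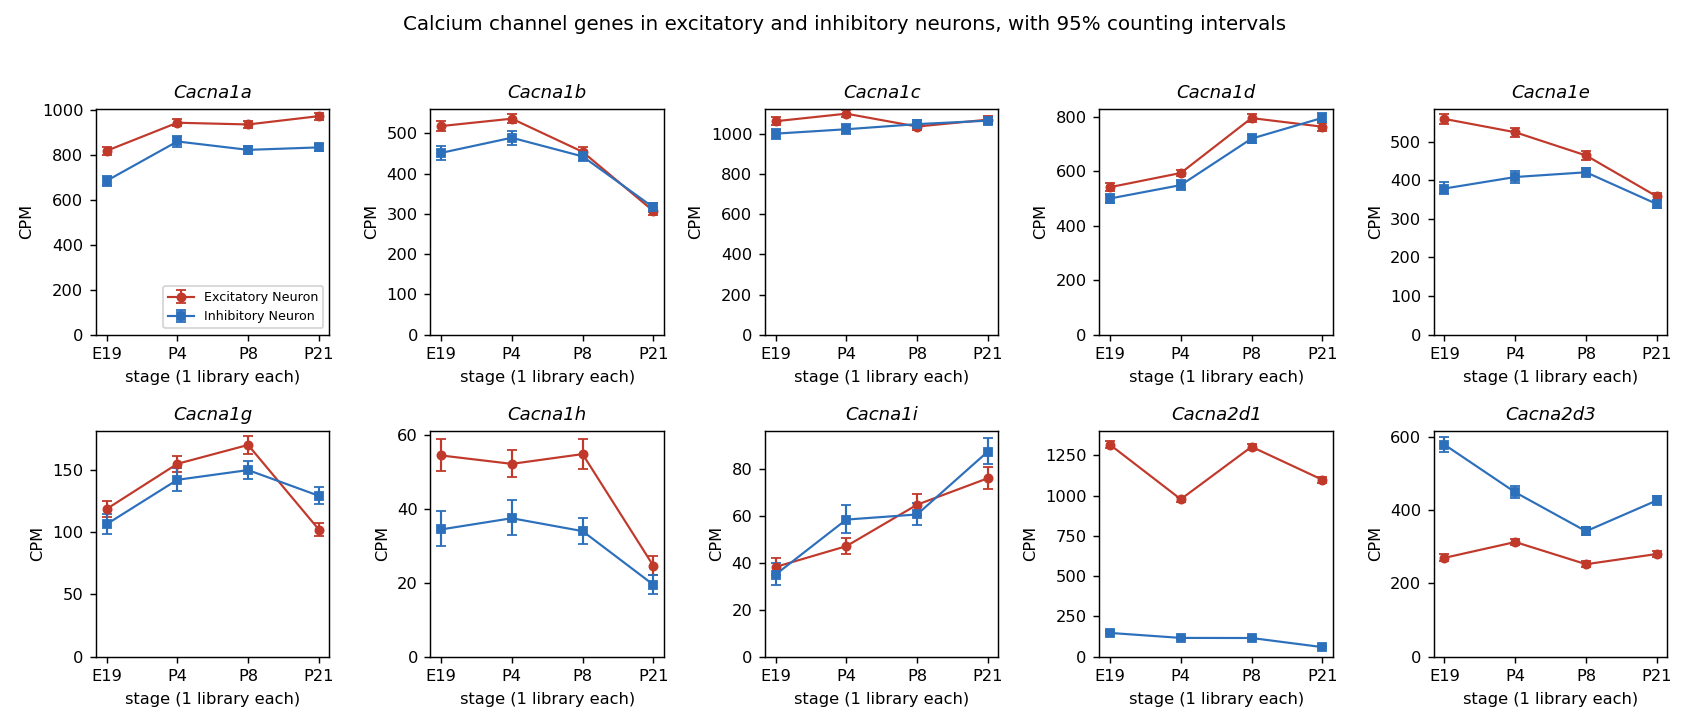
CPM of each of the 10 calcium channel genes (vertical axes, each from 0) at the 4 stages (horizontal axes) in excitatory neurons (red circles) and inhibitory neurons (blue squares). Points are sums over the nuclei of 1 library and bars are 95% Poisson intervals. Cacna2d1 separates the classes at every stage (1315, 977, 1303 and 1098 CPM against 148, 117, 117 and 59.98 CPM), while Cacna1c stays between 1002 and 1102 CPM in both.

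Most of the 10 genes differed by less than 2-fold between E19 and P21. In excitatory neurons 0 members were called higher at P21 than at E19, where 5.35% of the genes tested were, and 1 member, Cacna1h, was called lower, where 10.7% of the genes tested were. In inhibitory neurons 1 member, Cacna1i, was called higher, where 5.83% of the genes tested were, and 1 member, Cacna2d1, was called lower, where 11.3% of the genes tested were. The median log2 ratio over the members was -0.10 in excitatory and -0.03 in inhibitory neurons, beside -0.06 and -0.04 over all genes tested. Counts of 0 or 1 of 10 lie near these shares and are no result about the family. Each of these 3 calls is lost under some alternative, Cacna1h under 5 of them, Cacna1i with a pseudocount of 20 CPM (0.97), and Cacna2d1 with neurons classed by their transmitter UMIs (-0.97) or without the deepest and mixed nuclei (-0.99). Between the neuron classes, Cacna2d1 was the 1 member called higher in excitatory neurons in all 4 libraries, a pattern of 0.579% of the genes tested, and 0 members were called higher in inhibitory neurons in all 4, beside 0.547% of the genes tested.

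Cacna1a encodes the P/Q type pore, the main calcium source for fast release at many mature synapses, and lies at chr8:84388440-84640246 on the plus strand (GRCm38). Excitatory neurons held 819, 945, 937 and 974 CPM of it from E19 to P21. Inhibitory neurons held 686, 861, 824 and 835 CPM. E19 was the lowest stage in both classes, apart from the next stage by its counting interval, and the intervals of neighbouring levels at P4, P8 and P21 overlapped. The level in excitatory neurons was 1.10 to 1.19 times that in inhibitory neurons in the 4 libraries. Among subtypes, EN6 showed the widest difference between stages, with 654, 864, 1044 and 1290 CPM, and was the highest subtype at P21. EN10 at P4 held 550 CPM, the lowest subtype of that library, against 778, 931 and 987 CPM at E19, P8 and P21.

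Cacna1b encodes the N type pore, which also serves release and is prominent at young synapses, and lies at chr2:24603887-24763152 on the minus strand. Excitatory neurons held 518, 536, 454 and 307 CPM and inhibitory neurons 451, 489, 443 and 316 CPM from E19 to P21. P21 was the lowest stage in both classes and its interval overlapped that of no other stage. The log2 ratio of P21 to E19 was -0.75 (95% counting interval -0.80 to -0.69) in excitatory and -0.51 (-0.58 to -0.44) in inhibitory neurons, short of a 2-fold change. The level at P21 was below that at E19 in 9 of 9 excitatory and 8 of 10 inhibitory subtypes with at least 30 nuclei at both stages. EN9 showed the lowest ratio, with 411, 363, 332 and 148 CPM. IN4 held 291, 275, 346 and 280 CPM and was the lowest subtype of all at E19 and P4.

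Cacna1e encodes the R type pore and lies at chr1:154390731-154884501 on the minus strand. In excitatory neurons it was lower at each later stage, with 559, 524, 464 and 358 CPM, and no neighbouring intervals overlapped. In inhibitory neurons it stood at 379, 408, 421 and 338 CPM, with P21 lowest. The excess in excitatory over inhibitory neurons was 1.48-fold (1.41 to 1.55) at E19, 1.28-fold at P4, 1.10-fold at P8 and 1.06-fold (1.01 to 1.10) at P21. Subtypes differed in direction. IN3 held 285, 445, 570 and 555 CPM and was the highest subtype at P21, overlapping EN2 within counting error, whereas IN7 held 328, 286, 264 and 119 CPM and was the lowest. EN10 reached 1061 CPM (972 to 1155) at P4, against 515, 484.5 and 332 CPM at the other stages, in the library in which its Cacna1a was lowest of all subtypes.

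Cacna1c encodes the Cav1.2 L type pore, known for coupling activity to transcription, and lies at chr6:118587240-119196418 on the minus strand. It was the steadiest member in neurons. Excitatory neurons held 1064, 1102, 1038 and 1072 CPM, inhibitory neurons 1002, 1024, 1050 and 1067 CPM, and the intervals of levels next to each other in order overlapped in both classes. The excitatory level was 0.99 to 1.08 times the inhibitory level. Subtypes of at least 30 nuclei stayed between 796 and 1433 CPM in all libraries. The highest value belonged to EN7, the subtype with the high thalamic marker level, with 1433 CPM at both E19 and P4, where IN4, with 1309 and 1297 CPM, overlapped it within counting error.

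Cacna1d encodes the Cav1.3 L type pore, which opens at lower voltage and supports pacemaking, and lies at chr14:30039939-30491455 on the minus strand. Excitatory neurons held 541, 593, 795 and 763 CPM and inhibitory neurons 500, 549, 719 and 795 CPM from E19 to P21. The levels at P8 and P21 were above those at E19 and P4 in both classes, and no neighbouring intervals overlapped in either. The log2 ratio of P21 to E19 was 0.49 (0.45 to 0.54) in excitatory and 0.67 (0.61 to 0.72) in inhibitory neurons. In the excitatory class 1 subtype stood far above the others. EN12 held 2169 CPM at P4, 2531 at P8 and 3054 (2957 to 3153) at P21, where the next excitatory subtype, EN9, held 979 CPM, and at E19 its 22 nuclei, under the minimum used for subtypes, held 1795 CPM. Every EN12 nucleus had a Cacna1d UMI, with a median of 80 UMIs per nucleus at P21 against 10 in EN1. EN12 was 1.64% of excitatory nuclei at E19 and 6.01% at P21, and supplied 5.58% and 33.6% of their Cacna1d UMIs. Without EN12, chosen after its values were seen, excitatory neurons held 520, 536, 653 and 553 CPM and the log2 ratio was 0.09. With the 9 excitatory subtypes of at least 30 nuclei at both stages weighted alike, it was -0.10, and 3 of these 9 were higher at P21. EN12 is not among these 9, so this value leaves it out as well.

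In inhibitory neurons the difference between stages in Cacna1d appeared within subtypes. Of 10 subtypes, 8 were higher at P21 than at E19, and 7 of these had counting intervals above 0. IN3 held 540, 1066, 1085 and 1387 CPM, a log2 ratio of 1.35 (1.13 to 1.58), and 12 of its 67 nuclei at E19 but 0 of 126 at P21 lacked a Cacna1d UMI, at a median depth of 4465 UMIs at E19 and 15752.5 at P21. IN9 went from 487 to 1109 CPM. IN5 held 935 CPM at E19 and 848 at P21, and IN7 957 and 924 CPM, both with counting intervals of the ratio that reach 0. Without IN3 the inhibitory class held 497, 522, 650 and 669 CPM. In IN3 nuclei with 0 UMIs of Slc17a6 and Slc17a7, Cacna1d stood at 583, 1106, 1114 and 1408 CPM.

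Cacna1g, Cacna1h and Cacna1i encode the 3 T type pores. Cacna1g, at chr11:94408391-94474198 on the minus strand, held 119, 155, 170 and 102 CPM in excitatory and 106, 142, 150 and 129 CPM in inhibitory neurons, with the highest level at P8 in both, although P4 and P8 overlapped in inhibitory neurons. At P21 it was lower than at E19 in excitatory neurons, with a log2 ratio of -0.21 (-0.31 to -0.11), and higher in inhibitory neurons, with 0.27 (0.14 to 0.40). The ratio in excitatory neurons turned to 0.03 when nuclei were thinned to equal depth, and its sign was kept in 8 of 9 alternatives. Among subtypes, EN8 was the lowest at P4, P8 and P21, with 55.3, 95.3 and 46.2 CPM, and IN7 held 31.2 CPM at E19 against 168, 114 and 135 CPM later.

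Cacna1h, at chr17:25374285-25433783 on the minus strand, held 54.4, 52.1, 54.7 and 24.6 CPM in excitatory and 34.4, 37.4, 33.9 and 19.5 CPM in inhibitory neurons. The levels at E19, P4 and P8 overlapped within counting error and P21 lay below them in both classes. The log2 ratio of P21 to E19 was -1.01 (-1.17 to -0.84) in excitatory neurons, at the threshold, and -0.69 (-0.92 to -0.46) in inhibitory neurons. With nuclei thinned to 2300 UMIs, 11.3% of excitatory nuclei had a Cacna1h UMI at E19 and 6.60% at P21, and unthinned 34.3% and 34.5% did, at a median depth of 8051.5 and 19601 UMIs. Microglia had 0 Cacna1h UMIs in 90 nuclei, which allows up to 11.7 CPM. IN10 stood against the other subtypes, with 49.2 CPM (23.6 to 90.5) at E19, 59.0 CPM at P8 and 155 CPM (121 to 195) at P21, where no other subtype exceeded 79.2 CPM. Those 155 CPM rested on 70 UMIs in 36 nuclei, of which 25 had at least 1 UMI, and leaving out the nucleus with the most gave 144 CPM.

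Cacna1i, at chr15:80287238-80398279 on the plus strand, had its lowest level at E19 and its highest at P21, with 38.3, 47.2, 64.9 and 76.2 CPM in excitatory and 35.1, 58.6, 60.7 and 87.6 CPM in inhibitory neurons. The log2 ratio of P21 to E19 was 0.91 (0.76 to 1.05) in excitatory and 1.21 (1.02 to 1.40) in inhibitory neurons. The intervals of P4 and P8 overlapped in inhibitory neurons, and no others that neighbour in order did. The ratio had the same sign in 9 of 9 excitatory and 10 of 10 inhibitory subtypes. Thinned to equal depth, the share of nuclei with a Cacna1i UMI went from 9.12% to 18.5% in excitatory and from 7.84% to 18.0% in inhibitory neurons. Of the microglia, 1 of 33 nuclei had a Cacna1i UMI at P21, at a median depth of 2994 UMIs against 19601 in excitatory neurons. IN3 was the highest subtype at P4, P8 and P21, with 94.7, 101 and 150 CPM, but EN5 held 88.9 and 96.6 CPM at P4 and P8 and overlapped it within counting error, and without the nucleus with the most UMIs IN3 was not the highest at P4 (88.8 CPM). Without IN3 the inhibitory ratio was 1.01.

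**Figure D2:**
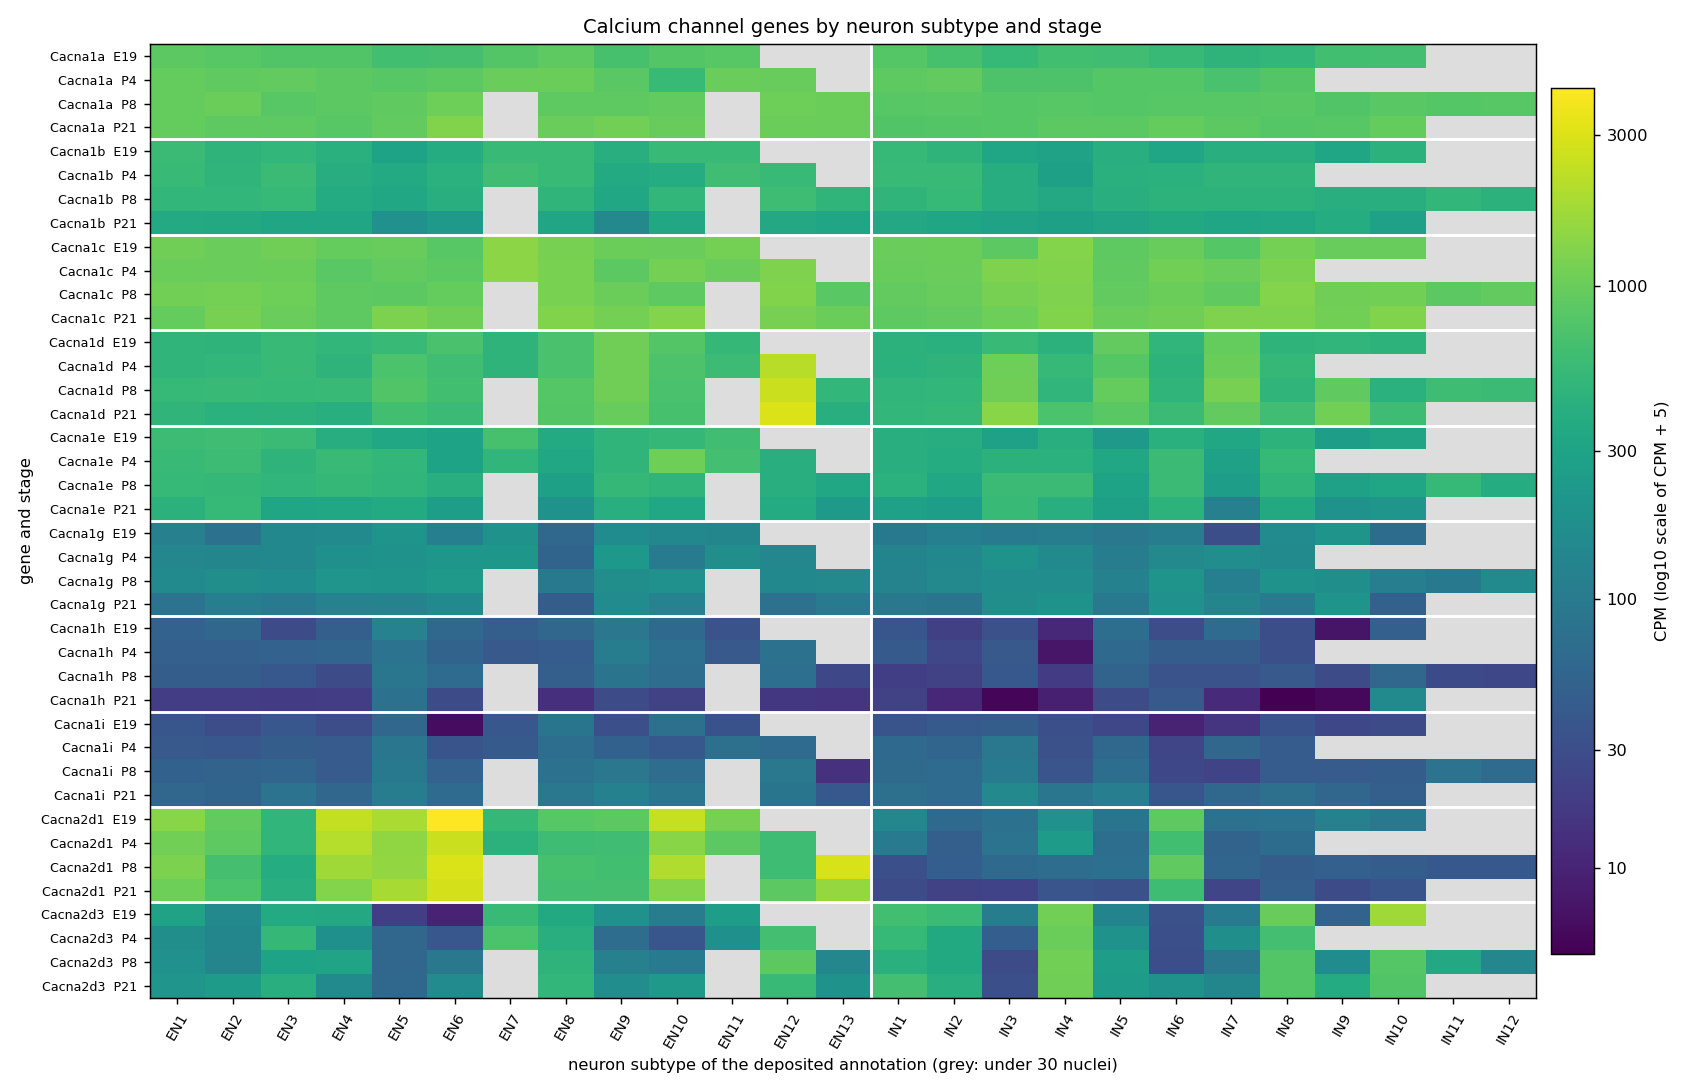
CPM of the calcium channel genes (rows, 4 stages each) in the neuron subtypes of the deposited annotation (columns), on a log10 colour scale of CPM + 5. Grey cells are subtypes with under 30 nuclei in that library. EN12 stands out for Cacna1d (3054 CPM at P21), EN6 for Cacna2d1 (4227 CPM at E19) and IN4 for Cacna2d3 (1020 to 1110 CPM).

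Cacna2d1, at chr5:15934691-16374511 on the plus strand, separated excitatory from inhibitory neurons more than any other member. Excitatory neurons held 1315, 977, 1303 and 1098 CPM and inhibitory neurons 148, 117, 117 and 59.98 CPM from E19 to P21. The excess was 8.89-fold (8.31 to 9.51) at E19, 8.34-fold at P4, 11.2-fold at P8 and 18.3-fold (16.9 to 19.8) at P21. With 5 CPM added to both sides, the log2 ratios were 3.11, 3.01, 3.43 and 4.08. They were 2.44, 2.24, 2.65 and 3.12 where neurons were classed by their transmitter UMIs in place of the annotation. A Cacna2d1 UMI was found in 95.1% to 99.1% of excitatory nuclei and in 30.9% to 40.7% of inhibitory nuclei, and after thinning in 75.6% to 81.9% and 7.97% to 17.8%. Microglia, set beside them as cells of another kind, had a UMI in 26.1% to 33.3% of nuclei, at a median depth of 2984 to 4324 UMIs, and held 88.5 to 105 CPM, from 5 to 10 UMIs a library. Inhibitory neurons outside IN6 held 109, 93.7, 54.0 and 28.5 CPM, within or below the counting intervals of the microglial levels at each stage, and the part of free RNA in these values was not tested. The lower inhibitory level at P21, a log2 ratio of -1.23 (-1.37 to -1.10), went along with a lower level of Slc17a6 and Slc17a7 in the same nuclei, 46.3, 40.7, 19.9 and 8.49 CPM from E19 to P21, and the part of such reads in that ratio was not tested.

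The excitatory subtypes ranged widely. EN6 was the highest subtype in every library, with 4227 (3948 to 4520), 2548, 2967 and 2797 CPM in 30, 41, 101 and 64 nuclei, and each of these nuclei had a Cacna2d1 UMI. EN4, EN5 and EN10 held 1317 to 2446 CPM. EN3 was the lowest excitatory subtype at E19, P8 and P21, with 490, 387 and 410 CPM, and EN7 at P4, with 442 CPM. At P8 the interval of EN6 overlapped that of EN13, 2858 CPM, and at the other stages EN6 lay above every other subtype.

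IN6 was the exception among inhibitory subtypes. It held 882 (779 to 995), 626, 906 and 593 CPM of Cacna2d1, where the next inhibitory subtype held 187, 253, 74.0 and 48.2 CPM. Without the nucleus with the most UMIs in each library, IN6 held 730, 499, 809 and 500 CPM. In 42.6% to 59.5% of its nuclei a UMI was found at all, and 9 of 54, 7 of 42, 20 of 80 and 10 of 51 nuclei held 10 or more, so the transcripts were concentrated in a part of the nuclei. In IN6 nuclei with 0 UMIs of Slc17a6 and Slc17a7 the level was 653, 596, 824 and 661 CPM. IN6 held 716, 619, 517 and 550 CPM of Gad1, Gad2 and Slc32a1 and 56.4, 28.4, 20.9 and 7.93 CPM of Slc17a6 and Slc17a7. At E19 it made up 6.05% of the inhibitory class and supplied 30.2% of its Cacna2d1 UMIs, and at P21 6.89% and 55.2%.

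Cacna2d3, at chr14:28904943-29721864 on the minus strand, leaned the other way. Inhibitory neurons held 578, 448, 342 and 426 CPM and excitatory neurons 270, 313, 252 and 280 CPM. The inhibitory excess was 2.14-fold (2.04 to 2.25) at E19, where it passed the limit, and 1.43-fold, 1.36-fold and 1.52-fold at P4, P8 and P21. The lower excess at P4 depended on EN7, the subtype with the high thalamic marker level. Without EN7 the log2 ratio of excitatory to inhibitory neurons at P4 was -0.998, against -0.51 with it. IN4 held 1102, 1020, 1110 and 1088 CPM and was the highest of the 17 subtypes with at least 30 nuclei in all libraries each time. IN10 stood above it at E19, with 1722 CPM (1547 to 1913), and below it at P8 and P21, with 804 and 771 CPM. IN3 and IN6 held little, 29.4 to 106 and 30.8 to 189 CPM. The difference between stages turned on the subtype. IN9 held 52.0, 163 and 377 CPM at E19, P8 and P21, EN6 held 9.91 (from 2 UMIs), 39.2, 93.7 and 161 CPM, and IN3 went from 106 to 31.6 CPM, a log2 ratio of -1.60 (-2.17 to -1.03). EN7, with 546 and 710 CPM at E19 and P4, was the highest excitatory subtype in those libraries.

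**Figure D3:**
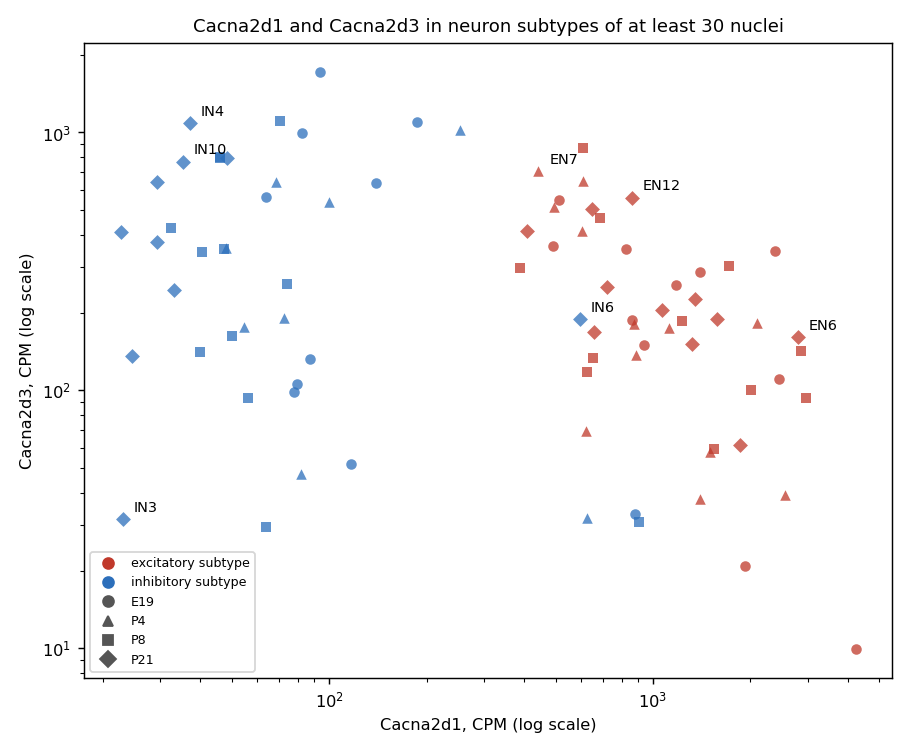
CPM of Cacna2d1 (horizontal, log axis) against Cacna2d3 (vertical, log axis) in the 85 neuron subtype profiles of at least 30 nuclei. Red marks are excitatory and blue inhibitory subtypes, marker shapes are stages, and names mark the latest stage shown for 7 subtypes. IN6 is the inhibitory subtype that lies among the excitatory ones (593 CPM of Cacna2d1 at P21), and EN6 (2797 CPM at P21) lies at the right edge.

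Over these 85 profiles the 2 α2δ genes had a Pearson r of -0.37 of log2(CPM + 5), and of -0.64 over the 45 excitatory profiles alone, in both cases the lowest of the 45 pairs of members. Over the 40 inhibitory profiles it was -0.32. Lower there were Cacna1i with Cacna2d1 (-0.66), Cacna1d with Cacna2d3 (-0.47), Cacna1g with Cacna1h (-0.42), Cacna1b with Cacna1c (-0.38) and Cacna1d with Cacna2d1 (-0.34). The profiles share 4 libraries and repeat the same subtypes, so the value is a description. The opposite lean of these 2 genes is why their start regions are shown. They are the 250 bases before the annotated transcription start (RefSeq, GRCm38.p6), 5′ to 3′ on the strand of the gene, and 7 of the 10 members had an entry. Capitals mark matches, on either strand, to GGGCGG (the GC box) and CAGCTG (an E box), and TATAAA and TAATTA were searched as well.

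Cacna2d1, chr5:15934441-15934690, plus strand: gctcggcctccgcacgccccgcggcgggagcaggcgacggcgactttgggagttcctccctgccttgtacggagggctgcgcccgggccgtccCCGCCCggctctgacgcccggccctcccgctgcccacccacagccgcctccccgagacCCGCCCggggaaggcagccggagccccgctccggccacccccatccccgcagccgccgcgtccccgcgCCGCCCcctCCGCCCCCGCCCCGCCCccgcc

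Cacna2d3, chr14:29721865-29722114, minus strand: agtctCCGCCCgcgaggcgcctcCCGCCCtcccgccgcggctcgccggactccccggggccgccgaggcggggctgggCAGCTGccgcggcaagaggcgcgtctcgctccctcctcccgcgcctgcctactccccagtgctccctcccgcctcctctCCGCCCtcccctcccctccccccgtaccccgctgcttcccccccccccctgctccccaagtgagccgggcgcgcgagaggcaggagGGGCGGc

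The Cacna2d1 window had 6 GGGCGG matches, overlapping ones counted, and none of the other motifs, and the Cacna2d3 window had 4 GGGCGG matches and 1 CAGCTG match. Of 32851 RefSeq promoter windows of this length, 32.7% held GGGCGG, 12.4% TATAAA and 4.84% TAATTA, and 4271 held CAGCTG. Both windows were rich in G and C, 82.4% and 80.0% against a median of 52.4%. The matches are a description of the letters and say nothing of binding.

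Counts of nuclear RNA that include intron reads can rise with gene length, which was not tested here. The members span 59.5 kb (Cacna1h) to 817 kb (Cacna2d3). By CPM alone, excitatory neurons at E19 held more Cacna2d1 and Cacna1c (1315 and 1064 CPM) than Cacna1a (819 CPM). Levels of different genes were compared per 100 kb of gene, and their order depends on this scaling. On that scale Cacna1a led in excitatory neurons at every stage, with 325, 375, 372 and 387 CPM per 100 kb, level with Cacna1b at E19 (325 CPM per 100 kb), and Cacna2d3 was lowest at E19, P4, P8 and P21, with 33.0, 38.3, 30.9 and 34.3. At E19 the interval of Cacna2d3 overlapped that of Cacna1i (34.5). In inhibitory neurons Cacna1b (283) stood above Cacna1a (272) at E19, with intervals that overlapped. Cacna1a led there from P4 on, with 342, 327 and 332 CPM per 100 kb. The lowest gene there was Cacna1i at E19, with 31.6, overlapping Cacna2d1 (33.6) within counting error. From P4 on it was Cacna2d1, with 26.6, 26.5 and 13.6. Cacna1c and Cacna1d, which differ at E19 (175 and 120 CPM per 100 kb in excitatory neurons), stood side by side at P21 (176 and 169). Of the summed α1 level per 100 kb, the P/Q, N and R type genes held 56.0% at E19 and 51.7% at P21 in excitatory and 54.6% and 47.6% in inhibitory neurons, and the L type genes 21.6% and 27.3%, and 23.8% and 27.9%. The T type genes held 22.4% and 20.998% in excitatory neurons and 21.7% and 24.5% in inhibitory neurons. All of these are shares of the scaled levels and not of CPM. By CPM, Cacna1g, Cacna1h and Cacna1i were the lowest α1 genes in excitatory neurons at E19, with 119, 54.4 and 38.3 CPM.

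**Figure D4:**
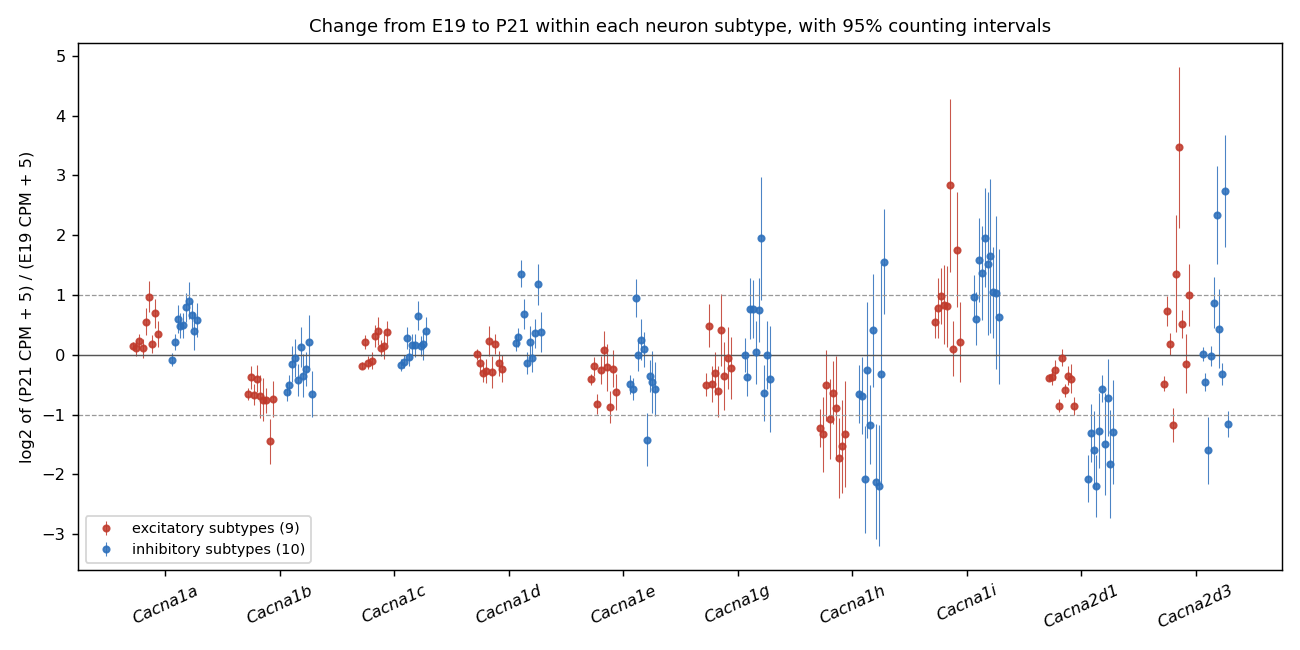
Log2 of the ratio of P21 to E19, with 5 CPM added to both sides (vertical axis), of each calcium channel gene (horizontal axis) within 9 excitatory (red) and 10 inhibitory (blue) subtypes. Points are subtypes of 1 library per stage, bars are 95% counting intervals and dashed lines mark a 2-fold change. Cacna1i lies above 0 and Cacna2d1 below 0 in every subtype shown, while Cacna2d3 spans -1.60 (IN3) to 3.47 (EN6).

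Within subtypes the members fell into steady and divided patterns. Cacna1a was higher at P21 in 9 of 9 excitatory and 9 of 10 inhibitory subtypes. Cacna1h was lower in 9 of 9 excitatory and 8 of 10 inhibitory subtypes. Cacna2d1 was lower in 9 of 9 and 10 of 10, with a median log2 ratio of -0.38 and -1.40. Cacna1e was lower in 8 of 9 and 7 of 10 subtypes, and Cacna1c higher in 6 of 9 and 7 of 10. Cacna1g and Cacna2d3 were divided in inhibitory neurons, with 5 subtypes above and 5 below 0 each. These are counts of subtypes within the same 2 libraries and not of replicates.

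The genes whose profile over the 85 subtype and library profiles was most like that of a member were ranked by Pearson r of log2(CPM + 5) among 7062 genes, as a description. Cacna2d1 had the highest values, with Slc17a6 (0.87), Nrn1 (0.84) and Lhx2 (0.84). Slc17a6, the vesicular glutamate transporter that marks excitatory neurons here, is one of the genes that separate the classes. Cacna1b came closest to Erc1 (0.81), which encodes a scaffold of the presynaptic active zone, Smurf1 (0.80) and Nln (0.78). Cacna1a came closest to Cntnap1 (0.78), Ptprn (0.77) and Fnbp1 (0.75), and Cacna1h to Unc13b (0.68), which encodes a vesicle priming protein, Dlgap4 (0.65) and Ptprz1 (0.62). Cacna1e came closest to Gm26848 (0.68), Mmd2 (0.63) and Gas7 (0.62), Cacna1i to Dcaf6 (0.65), Epb41l3 (0.63) and Rps6ka3 (0.61), and Cacna1d to Tspoap1 (0.63), whose product binds calcium channels at the active zone, Dgkh (0.61) and Elmod1 (0.61). The remaining members had weaker neighbours, Sorcs3 (0.59), Lrrtm4 (0.58) and Wipf3 (0.55) for Cacna2d3, Sez6l (0.55), Wtip (0.50) and Grin3a (0.50) for Cacna1g, and Mbp (0.52), Mast4 (0.50) and Htr7 (0.48) for Cacna1c. Among pairs of members the highest r was 0.47, for Cacna1a and Cacna1i.

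Genes around the channel were described with the same limits. Of 16 other calcium channel genes, the remaining α1, α2δ, β and γ genes, 10 passed the level filter, and in both neuron classes 1 was called higher and 2 lower. Cacnb3, a cytoplasmic β subunit that brings the pore to the membrane, stood at 88.7 CPM at E19 and 18.3 at P21 in excitatory and at 70.5 and 10.7 CPM in inhibitory neurons. Cacng4 and Cacng7 belong to the γ family, whose members include the AMPA receptor auxiliary proteins. Cacng4 stood at 223 and 28.5 CPM in excitatory and 214 and 32.9 CPM in inhibitory neurons, and Cacng7 at 52.8 and 116 CPM and at 58.2 and 123 CPM. The median log2 ratio of the list was 0.17 in excitatory and 0.20 in inhibitory neurons.

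Of 24 genes for proteins that bind or regulate the channels, 18 were tested. In excitatory neurons 2 were called higher and 2 lower at P21, and in inhibitory neurons 4 higher and 2 lower. Snap25, a membrane fusion protein of the release machinery, had a log2 ratio of 1.65 and 1.78 (218 to 695 and 228 to 796 CPM in excitatory and inhibitory neurons), while Stx1a, its partner in the fusion complex, had -2.01 and -1.96 (131 to 28.9 and 93.8 to 20.3 CPM). Cabp1, which encodes a calcium-binding regulator of the channels, had 1.34 and 1.78, and the calmodulin gene Calm3 -1.41 and -1.55. Stac and Stac2 encode adaptors that bind L type channels. In inhibitory neurons Stac stood at 52.3 and 186 CPM at E19 and P21 and Stac2 at 8.89 and 33.5 CPM. In excitatory neurons neither passed the limit, with log2 ratios of -0.49 and 0.69.

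Of 8 genes for extracellular partners of α2δ proteins, 5 were tested, and 0 were called higher and 2 lower in both classes. Thbs3 encodes a thrombospondin, a secreted matrix protein of the family that binds α2δ, and stood at 67.5 and 10.95 CPM at E19 and P21 in excitatory and 38.9 and 8.76 CPM in inhibitory neurons. Nrxn2, a presynaptic adhesion molecule gene, stood at 500 and 220 CPM and at 516 and 251 CPM. These lists hold few genes, and their counts stand beside the shares of all genes given above.

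**Figure D5:**
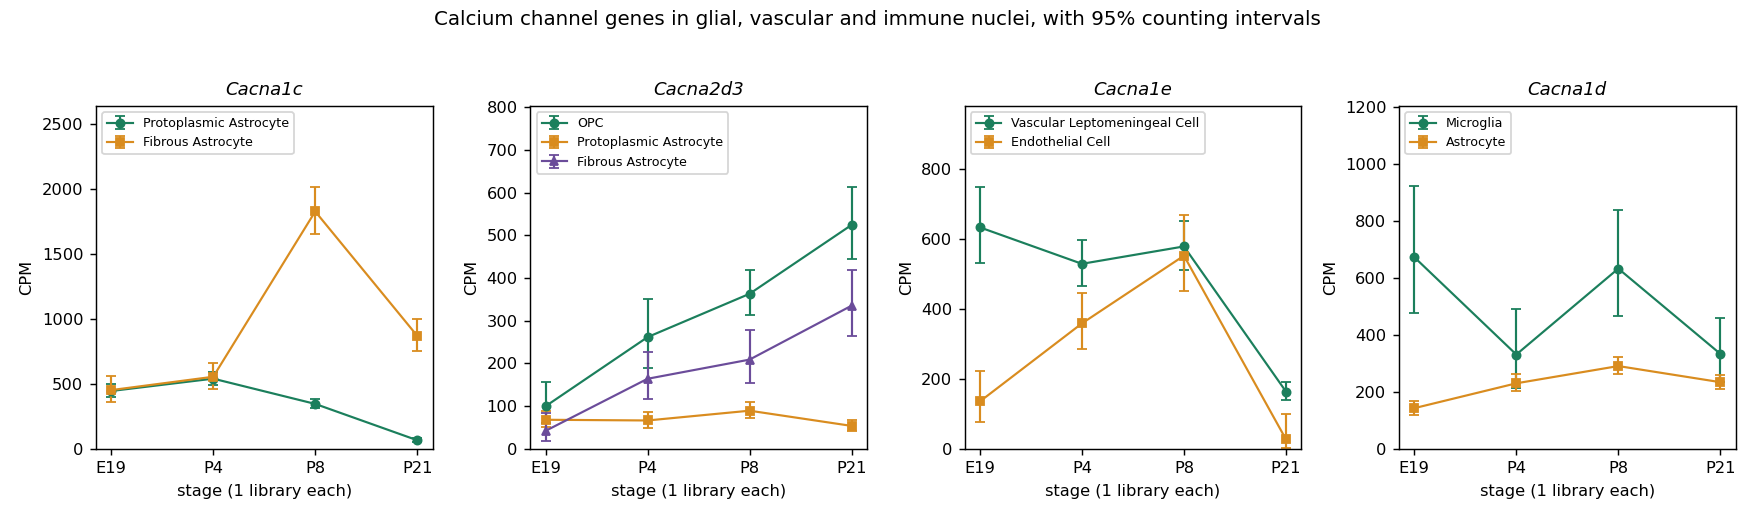
CPM (vertical axes, from 0) at the 4 stages (horizontal axes) of Cacna1c, Cacna2d3, Cacna1e and Cacna1d in named groups of glial, vascular and immune nuclei, with 95% Poisson intervals as bars. Cacna1c in fibrous astrocytes is highest at P8 (1825 CPM) and Cacna2d3 in oligodendrocyte precursors (OPC) is highest at P21 (524 CPM).

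Outside neurons the levels rest on fewer nuclei, and some groups held as much of a member as neurons did. In protoplasmic astrocytes Cacna1c stood at 445, 539, 345 and 65.8 CPM from E19 to P21. In fibrous astrocytes it stood at 451, 554, 1825 (1651 to 2013) and 869 CPM in 41, 48, 45 and 55 nuclei. The groups were level at E19 and P4 and apart at P8 and P21. At P8 the median fibrous nucleus held 8 Cacna1c UMIs, and the level without the nucleus with the most was 1739 CPM. In astrocytes Cacna1g stood at 20.5 (12.4 to 32.0), 13.9, 3.23 and 3.08 CPM from E19 to P21, from 19, 14, 4 and 5 UMIs, and Cacna1i at 4.84 to 8.91 CPM.

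Oligodendrocyte precursors, which receive synapses from neurons, held 656, 672, 689 and 685 CPM of Cacna1a and 782, 969, 950 and 875 CPM of Cacna1c. Both were lower in later cells of the lineage. Committed oligodendrocytes held 495 and 245 CPM of Cacna1a at P8 and P21, and myelinating oligodendrocytes 67.0 CPM at P21. Cacna1c stood at 595 and 152 CPM in the former and 145 CPM in the latter. Cacna2d3 went the other way with stage in the precursors, with 99.7, 262, 363 and 524 CPM, and in fibrous astrocytes, with 42.0, 164, 209 and 335 CPM, but stood at 53.6 to 89.2 CPM in protoplasmic astrocytes at all stages. The oligodendrocyte lineage as a class held 623 CPM of Cacna1a at P8 and 182 at P21, when 187 of its 306 nuclei were myelinating oligodendrocytes.

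Vascular leptomeningeal nuclei held 1337, 747, 848 and 476 CPM of Cacna1c and 632, 528, 578 and 164 CPM of Cacna1e. The class also held 3164, 2764, 2925 and 1447 CPM of astrocyte markers beside 3364, 1990, 1787 and 1282 CPM of its own. Astrocytes held 2209, 2160, 3203 and 5960 CPM of the same astrocyte markers. The source of these counts in leptomeningeal nuclei was not tested, nor was their part in the values of the class. In astrocytes Cacna1e stood at 24.6 to 79.2 CPM. In endothelial nuclei Cacna1e stood at 135, 358, 551 and 27.1 CPM, the last from 2 UMIs in 12 nuclei, and the mural marker list stood at 2034 to 3136 CPM in the same nuclei. Microglia held 672, 331, 632 and 333 CPM of Cacna1d, from 24 to 48 UMIs a library, against 142 to 290 CPM in astrocytes.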

How the data were processed

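Nuclei were isolated from microdissected superior colliculus, and each stage gave 1 library (10x Genomics 3′ v3). The authors aligned reads to mm10 with Cell Ranger 3.0.2, per the submitters' processing notes, using a pre-mRNA reference, so reads in introns count. The authors deposited UMI counts per gene and nucleus with class and subtype labels. The total recomputed here matched the deposited total in 9724 of 9724 nuclei. The strand setting of the counting is not given in the sources used here. Antisense genes overlap several members, and Dcp1a within Cacna1d held 6.94% as many UMIs as Cacna1d and Dcp1b within Cacna1c 5.04%. The authors also deposited the percent of mitochondrial and of ribosomal protein UMIs per nucleus, and 7 further columns per nucleus (clusters, embeddings and reference labels), which were not used.

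Counts were summed per library and class or subtype (at least 30 nuclei) and divided by total UMIs to give CPM. With 1 library per stage no test was made, and intervals cover counting error only. Nuclei were thinned to 2300 UMIs, with 0 left out, to compare shares of nuclei with a UMI. No doublet caller was run. Neurons with UMIs of both transmitter sets and the deepest nuclei were left out in an alternative. The fold rule was run on simulated counts with Poisson noise only and planted changes larger than the fold limit. That run does not bear on changes near the limit, on genes as low as Cacna1h and Cacna1i, or on differences between libraries. Gene positions are from GENCODE (GRCm38), and 31011 identifiers (99.86%) matched. Calculations used Python 3.11.15 with NumPy 2.4.6, SciPy 1.17.1 and pandas 2.3.3.

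The members and lists were chosen with earlier results of these data known. All members are named, with the highest 3 and lowest 3 subtypes per library considered for naming. Of the other lists, genes past the fold limit in either neuron class are named, at most 6 per list, and for each member the 3 genes of largest r. Subtypes named for other reasons (EN9, EN10, IN9 and others with large differences between stages) were chosen after their values were seen.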

Additional observations from a re-analysis of the deposited data

Results flagged for a closer look

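Cacna1g, a T type pore gene, was lower at P21 than at E19 in excitatory neurons (119 to 102 CPM, log2 ratio -0.21) and higher in inhibitory neurons (106 to 129 CPM, log2 ratio 0.27). The 2 log2 ratios differed by -0.475, and the classes went opposite ways with 1 library per stage. The difference was not tested. With nuclei thinned to equal depth the excitatory ratio was 0.03 and the inhibitory 0.50, so the opposite signs did not hold there. The excitatory ratio kept its sign in 8 of 9 alternatives, and no counting interval was made for the thinned ratio.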

How the results depend on the processing

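Over 60 log2 ratios of members and 9 alternatives, 45 kept their sign in every alternative, as did the 8 ratios at or past the limit, and 0 called values changed sign. The sizes were less steady. Of the 60 ratios, 33 left their counting interval with subtypes weighted alike and 31 with median-of-ratios scaling. After thinning 27 did, with nuclei weighted alike 17, and under the other alternatives 0 to 13. The count of members called moved more readily than the signs, since several lie at the limit. In excitatory neurons the count higher at P21 was 1 with median-of-ratios scaling and 1 at a fold of 1.5, against 0. The count lower there was 0 with a pseudocount of 20 CPM, 0 with median-of-ratios scaling, 0 with nuclei weighted alike, 0 after thinning and 0 without the deepest and mixed nuclei, and 3 at a fold of 1.5, against 1. In inhibitory neurons the count higher was 0 with a pseudocount of 20 CPM and 2 at a fold of 1.5, against 1, and the count lower was 0 with neurons classed by transmitter UMIs, 0 without the deepest and mixed nuclei and 2 at a fold of 1.5, against 1. Members with the same highest subtype in all 4 libraries numbered 6 with at least 50 nuclei per subtype, over 8 subtypes, against 2 over 17. These counts are over different sets, since the stricter minimum leaves out subtypes such as EN6, with 30 nuclei at E19. The highest subtype of Cacna2d1 was EN6 among the 17 and EN4 among the 8. The genes used for median-of-ratios scaling had a median log2 ratio of P21 to E19 of -0.11 in excitatory and -0.12 in inhibitory neurons, and that scaling sets it to 0, so each member's ratio lies higher by that size under it. Over the alternatives Cacna1h ranged from -1.11 to -0.74 in excitatory neurons, Cacna2d1 from -1.29 to -0.97 and Cacna1i from 0.97 to 1.32 in inhibitory neurons, and Cacna1d from -0.10 to 0.61 in excitatory neurons. The -0.10 came with subtypes weighted alike, which leaves out EN12 for its 22 nuclei at E19. Leaving out IN6, an alternative chosen after seeing the data, gave -1.77 for Cacna2d1 in inhibitory neurons, and leaving out EN6 gave -0.38 in excitatory neurons. Leaving out IN4 gave -0.62 for Cacna2d3 in inhibitory neurons, against -0.44. No paired analysis was possible because each stage has 1 library, and for the same reason no replicate could be left out.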

Other observations

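Nuclei annotated as dividing, 10 to 36 a library, held 627, 616, 1072 and 616 CPM of Cacna1c from E19 to P21 and 104, 169, 313 and 533 CPM of Cacna2d3. Nuclei annotated as epithelial, 13 to 40 a library, held 1180, 1234, 806 and 287 CPM of Cacna1c and 340, 658, 264 and 229 CPM of Cacna2d1, together with 706 to 1310 CPM of astrocyte and 638 to 1083 CPM of leptomeningeal markers.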
